A study of Saccharomyces cerevisiae with 22 samples.

Results

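The genes that encode assembly factors of the large (60S) ribosomal subunit were followed through a heat shock and a cold shock of budding yeast. The group was defined by name, as 57 genes whose products bind, modify, remodel or export pre-60S particles. All 57 were found among the 5315 genes measured, REA1 under that symbol. The only genotype was wild type, strain BY4742, which is of mating type alpha. For the heat shock, cells grown at 30 °C were spun down and taken up in synthetic complete medium with 2% glucose at 37 °C, and were harvested after 5, 15, 30, 45 and 60 min. For the cold shock, cells grown at 37 °C were taken up in medium at 30 °C and harvested after the same times, and the culture at 37 °C itself was harvested as time 0. A time 0 sample of the heat shock was not analysed here, so heat shock levels were set against the common reference, RNA of a large culture of untreated BY4742 that was hybridised to every array in the other colour. Each of the 11 conditions has 2 arrays of opposite dye, called array a (sample labelled with Cy3) and array b (sample labelled with Cy5). Every value is a log2 ratio of the sample over the common reference, or a difference between 2 such ratios.

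Ribosome assembly starts in the nucleolus, where RNA polymerase I makes a long precursor that is folded, methylated, cut and bound by ribosomal proteins. Assembly factors act on the pre-60S particle in turn, and ATPases and GTPases release them before the particle leaves the nucleus. In yeast the genes of these factors belong to the ribosome biogenesis regulon, which is known to be switched with growth conditions through nutrient signalling and through the activator Sfp1 and the repressors Dot6, Tod6 and Stb3. The members were ordered by role: 10 RNA helicases, 5 GTPases and AAA ATPases, 3 rRNA methyltransferases, 6 early binding and Noc proteins, 7 proteins bound near the internal spacer ITS2 or at the A3 site, 12 Brix family proteins and partners, 10 factors of late maturation and export, and 4 others. They lie on 14 chromosomes and no pair of them are direct neighbours in the gene table.

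All 57 members were above background in both channels on all 22 arrays, with a mean log2 intensity between 7.33 and 10.999 and a median of 9.29, against 8.37 over all genes. Between 91.9% and 97.6% of the gene spots of an array were above background in both channels. Across all genes the pair of arrays behind a comparison correlated at between 0.87 and 0.99. Arrays of the same dye orientation correlated at as low as -0.37 (array a) and -0.41 (array b); the dyes are stated in the labels and the conditions run in opposite directions, so the signs were kept. Signal of the alpha-specific genes MF(ALPHA)1, MF(ALPHA)2, STE3 and SAG1 averaged between 10.5 and 13.3 on the log2 scale, and that of the a-specific genes MFA1, MFA2, STE2 and BAR1 between 5.98 and 7.10. Of the latter, MFA1, STE2 and BAR1 were also above background on all 22 arrays, so this measure sets a low bar for the faintest members.

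In heat shock the mRNA of the large majority of members fell within 5 min, stayed low to 30 min and came close to the reference by 45 min. In the plot of all time courses the median of the 57 members lay at -1.21, -1.01, -0.79, -0.28 and -0.27 after 5, 15, 30, 45 and 60 min, while the median of all genes stayed between -0.002 and 0.009. The loess curve fitted through the gene spots of each array sets the median of all genes near 0, so it could not show a shift of most genes. With a curve through external control spots that median was 0.19 and 0.20 at 45 and 60 min. By limma, with an adjusted p below 0.05 by Benjamini-Hochberg over all genes and a change of more than 1.7-fold, 46 of 57 members were lower than the reference at 5 min, against 6.02% of all genes. The same rule called 41 lower after 15 min (9.33% of all genes), 30 after 30 min (7.02%), 1 after 45 min (1.83%) and 3 after 60 min (1.41%). It called 0 members higher at any of the 5 times, against 6.87%, 8.92%, 7.7%, 4.12% and 3.73% of all genes in the same order. At 5 min all 57 members were below 0 on both arrays, which held for 43.7% of all genes. The members' median was -1.24 on array a and -1.30 on array b at 5 min, so that the 2 arrays differed far less than either did from 0. Members called lower and members not called were both found in most roles.

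**Figure D1:**
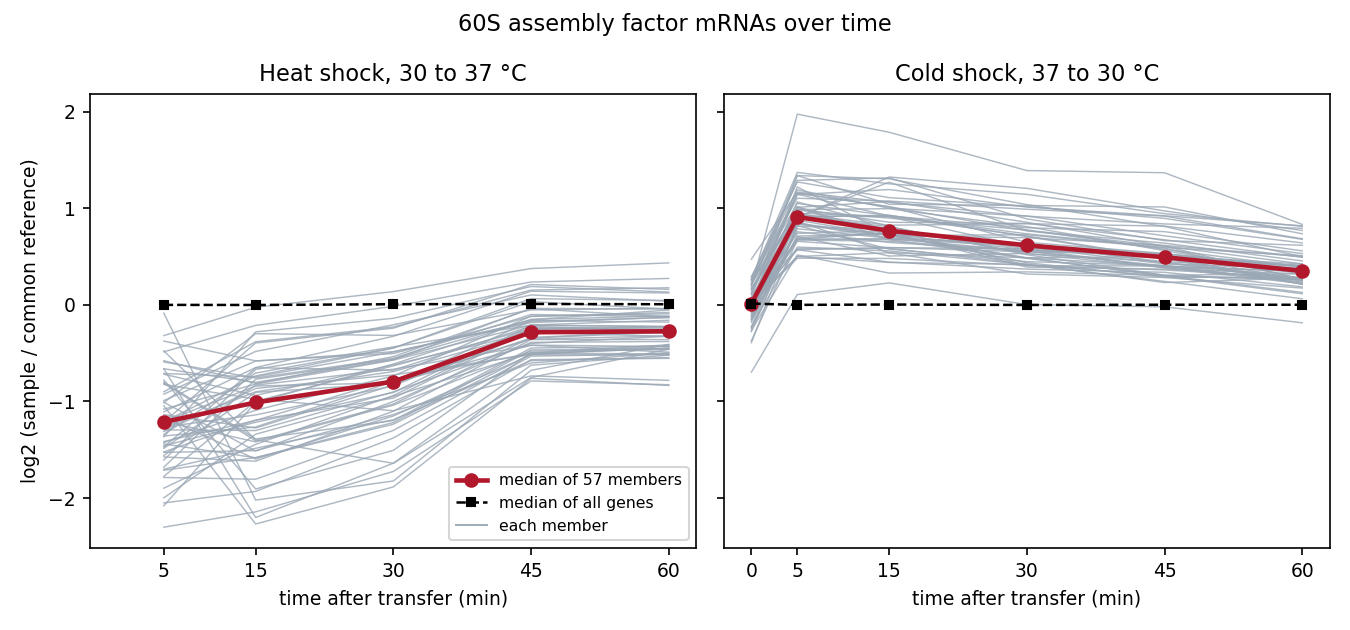
Log2 level over the common reference (vertical axis) against minutes after transfer (horizontal axis) in heat shock (left) and cold shock (right, time 0 being the 37 °C culture). Each thin line is 1 of the 57 members as the mean of 2 arrays, the thick line is their median and the dashed line the median of all genes; the members' median lies at -1.21 after 5 min of heat shock and at 0.91 after 5 min of cold shock.

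The 8 members with the largest fall at 15 min were NOP7, SDA1, RRP12, REA1, ARX1, NUG1, BRX1 and DRS1. NOP7, a scaffold of the complex with Erb1 and Ytm1 that is needed to process the 27S pre-rRNA, had a log2 ratio of -2.24 on array a and -2.30 on array b, a change of -2.27 ± 0.06 (SE, n = 2; limma adjusted p = 2.7e-15). SDA1, a pre-60S protein needed for export, was at -2.20 on both arrays (-2.20 ± 0.04, limma adjusted p = 1.9e-16). RRP12, which takes part in the export of both subunits, was at -2.12 and -2.17 on arrays a and b (-2.14 ± 0.05, limma adjusted p = 3.1e-15). The 2 arrays of each of these genes lay within 0.06 of each other. REA1, the very large AAA ATPase that pulls Ytm1 and Rsa4 off the particle, was at -2.06 and -1.98 (limma adjusted p = 6.2e-16). The export factor gene ARX1 was at -1.92 and -1.95, and the GTPase gene NUG1 at -1.90 and -1.91. BRX1, the founding member of the Brix family in yeast, was at -1.81 and -1.80, and the helicase gene DRS1 at -1.63 and -1.61. Export and remodelling factors thus stood beside factors of early nucleolar steps among the most lowered members.

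At the other end, RRP14, whose product takes part in the assembly of both subunits, had log2 ratios of 0.05 and -0.10 on arrays a and b at 15 min (limma adjusted p = 0.50). NOP16, a pre-60S protein, was at -0.19 and -0.24, the GTPase gene NOG2 at -0.32 and -0.24, and NOP12, whose product acts in the folding of pre-rRNA, at -0.30 and -0.29. None of these 4 was called at 15 min. RRP14 was the member with arrays of opposite sign at that time, and the other 56 were below 0 on both, as were 46.8% of all genes. At 15 min the SD across members was 0.53, while the median difference between arrays a and b of a member was 0.05, so that members differed far more than the 2 arrays of a member did. RRP14, NOP16, RSA3, DBP10 and LOC1 were not called lower at any of the 5 heat shock times. Of the others, 14 members were called at 1 time, 11 at 2, 24 at 3, 2 at 4 (NOP7 and TIF6) and 1 at all 5 (RRP12). Shares of all genes by number of times are not given here, so these counts describe the members only.

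By role, all 3 rRNA methyltransferase genes were called lower at both 5 and 15 min. The methyltransferase genes NOP2 (-1.45 and -1.39 on arrays a and b at 15 min) and SPB1 (-1.01 and -1.02) were among them. Of the 10 helicase genes, 7 were called lower at 5 min and 9 at 15 min, with medians of -1.18 and -1.07. HAS1, a helicase acting on both subunits, was at -1.46 and -1.32 at 15 min. Of the 5 GTPase and AAA ATPase genes, 4 were called lower at 15 min, with a median of -1.49. NOG1, a GTPase bound next to Rlp24, was at -0.83 and -0.85, and RIX7, the AAA ATPase that removes Nsa1, at -1.58 and -1.39. Of the 10 late maturation and export genes, 8 were called lower at 5 min and 9 at 15 min, with a median of -1.42 at 15 min. NMD3, the adaptor to the export receptor Crm1, was at -1.50 and -1.53, and RLP24, a ribosomal protein L24-like placeholder, at -0.95 and -0.86. These role groups hold 3 to 12 genes and overlap widely in the map of all members by condition.

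Of the 7 genes of ITS2 and A3 site proteins all were called lower at 5 min and 4 at 15 min, namely NOP7, ERB1 (-1.47 and -1.35 on arrays a and b at 15 min), YTM1 (-1.58 and -1.62) and RLP7 (-1.12 and -1.16), which encodes an L7-like protein. Of the 6 genes of early binding and Noc proteins 4 were called lower at 15 min. MAK21, the Noc protein that pairs with Noc2, was at -1.63 and -1.54. The 12 Brix family and partner genes had the highest median of the roles at 15 min (-0.75), with 10 called lower at 5 min and 6 at 15 min. RPF2 (-1.21 and -1.18) and RRS1 (-1.26 and -1.17), whose products bring in the particle's 5S RNA with its proteins, were called lower. The paralogues SSF1 (-0.74 and -0.67) and SSF2 (-0.46 and -0.51) were not called at 15 min and were called lower at 5 min, at -1.34 and -0.93. These 2 genes are near-identical copies, so cross-hybridisation may mix their signals and their separate values are uncertain.

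**Figure D2:**
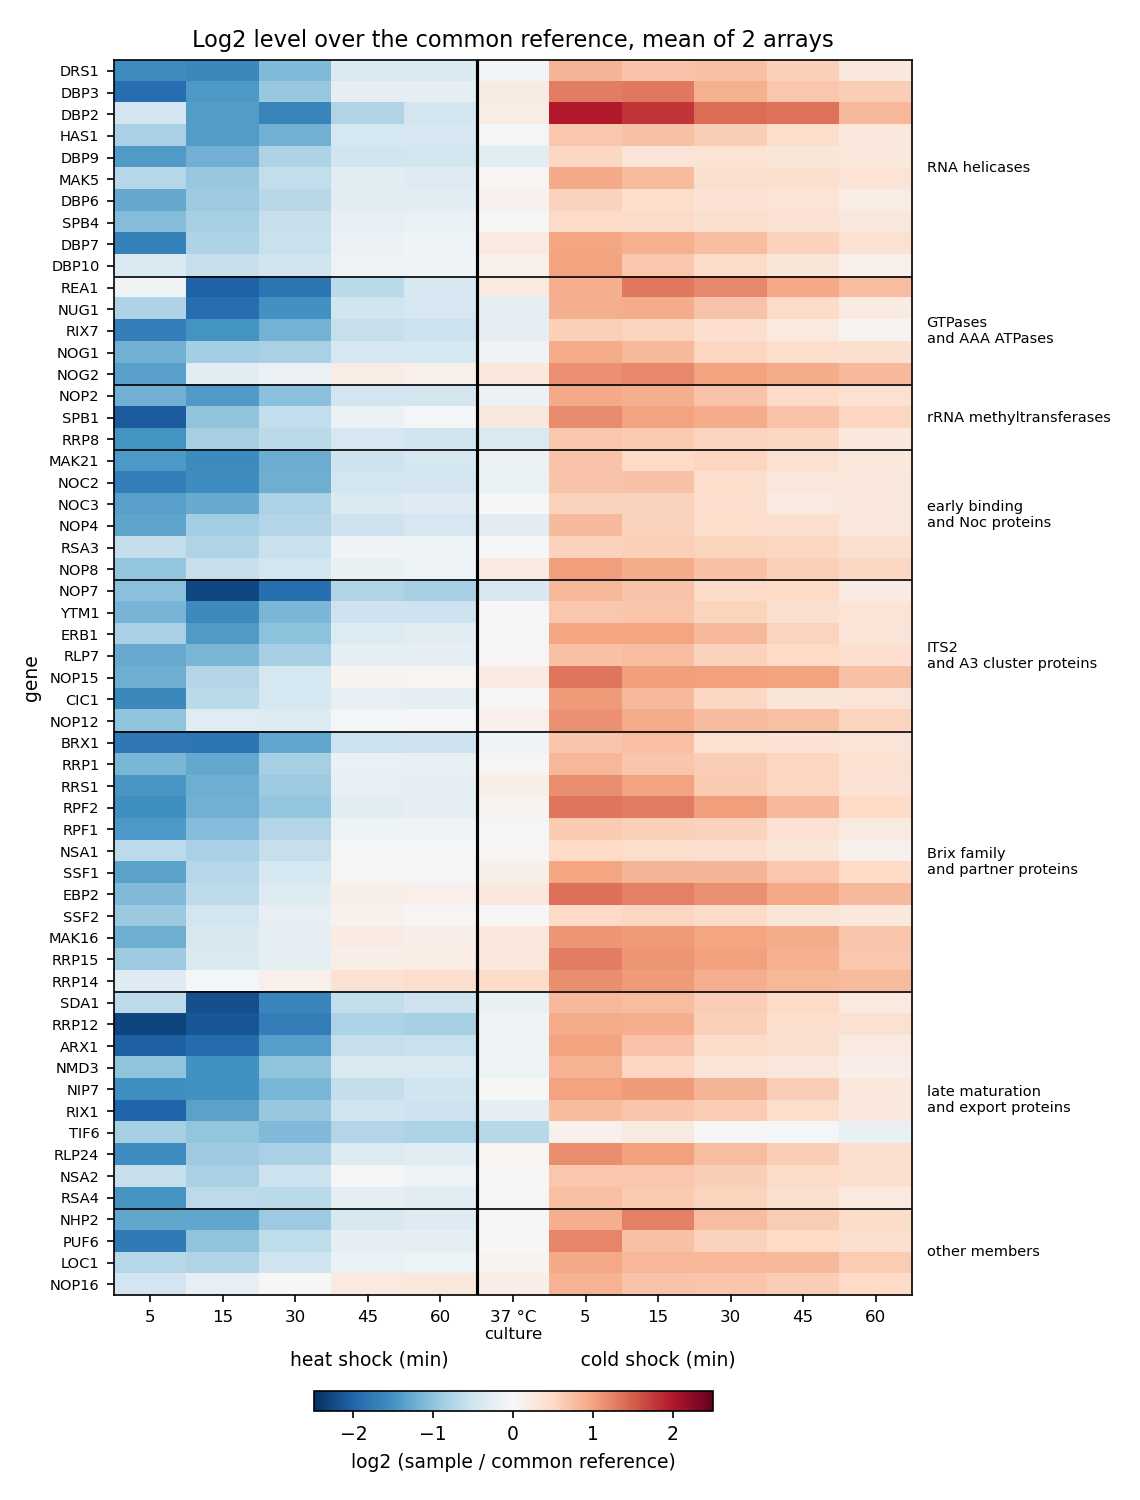
Each row is 1 of the 57 members, grouped by role and ordered within a role by its level at 15 min of heat shock, and each column is 1 of the 11 conditions (minutes of heat shock, the 37 °C culture, minutes of cold shock). Colour gives the log2 level over the common reference as the mean of 2 arrays, from blue (below) through white to red (above); REA1 is nearly white at 5 min of heat shock (-0.09) and deep blue at 15 min (-2.02), and TIF6 stays blue in the 37 °C culture (-0.70).

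The time of the lowest mean value differed among the members. Of the 57, 35 were lowest at 5 min, 20 at 15 min and 2 (DBP2 and TIF6) at 30 min. These times are read from the mean of 2 arrays, with no share over all genes. Some rest on small differences, as in BRX1, at -0.04 and 0.003 for 15 against 5 min on arrays a and b. Set directly against 5 min, 5 members were lower at 15 min (2.71% of all genes were) and 7 were higher (2.13% of all genes), by limma with the same rule; all 12 are named here because they are all the members called. Of the members called lower at 5 min, 35 were also called at 15 min and 11 were not, and a further 6 were called at 15 min and not at 5 min. Across the 57 members the levels at 5 and at 15 min correlated at Pearson's r = 0.26, given as a description, since both share the reference and the probes.

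REA1 changed most between these times. Its log2 ratio was -2.06 and -1.98 on arrays a and b at 15 min, against -0.12 and -0.05 at 5 min, a difference of -1.93 ± 0.06 (SE; limma adjusted p = 2.0e-12). It was not called at 5 min (limma adjusted p = 0.077), when the other 56 members were lower by the adjusted p alone, against 39.4% of all genes. SDA1 was at -2.20 on both arrays at 15 min, against -0.63 and -0.70 at 5 min, a difference of -1.54 ± 0.06 (limma adjusted p = 2.5e-11). NOP7 was at -2.24 and -2.30 at 15 min, against -0.99 and -1.10 at 5 min, a difference of -1.22 ± 0.08 (limma adjusted p = 6.0e-09). Both arrays of each gene were lower at 15 min than both arrays at 5 min. NUG1 differed by -1.13 ± 0.06 (limma adjusted p = 9.7e-10). DBP2, a DEAD-box helicase that also works on mRNA, was at -1.44 and -1.36 at 15 min, against -0.42 and -0.53 at 5 min, and at -1.52 and -1.76 at 30 min. Thus 4 of the 8 members with the largest fall at 15 min (NOP7, SDA1, REA1 and NUG1) had most of it still ahead of them at 5 min, whereas RRP12 (-2.40 and -2.20 at 5 min), ARX1 (-2.15 and -1.95), BRX1 (-1.77 and -1.81) and DRS1 (-1.49 and -1.66) were at or near their lowest at 5 min.

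The 7 members that were higher at 15 than at 5 min had been lowered early. NOG2, whose GTPase holds the place that the export adaptor Nmd3 takes later, was at -0.32 and -0.24 at 15 min, against -1.27 and -1.47 at 5 min, a difference of 1.09 ± 0.08 (limma adjusted p = 3.9e-08). SPB1 was at -1.01 and -1.02 at 15 min, against -1.94 and -2.22 at 5 min, a difference of 1.07 ± 0.06 (limma adjusted p = 3.6e-09). Both arrays of both genes were higher at 15 min than either array at 5 min. CIC1, an ITS2-binding factor, differed by 0.94 ± 0.08, the helicase gene DBP7 by 0.91 ± 0.07, RSA4, a substrate of Rea1, by 0.82 ± 0.06, MAK16 by 0.82 ± 0.08 and PUF6, which also represses translation of ASH1 mRNA, by 0.78 ± 0.09. For CIC1 the difference was 0.62 with a single loess curve per array, 0.58 with no curve and 0.48 with a curve through external control spots, and it was then not called. That of RSA4 was 0.71, 0.74 and 0.67 in the same order and was not called either. MAK16 was not called with the control spots (0.74) or without array b of 15 min (0.77), and PUF6 not with normexp background (0.76) or without array b of 15 min (0.71) or of 5 min (0.65). With a 2-fold limit NOG2 and SPB1 remained of the 7, and DBP2 was lost from the 5 that were lower. Probe brightness went with the timing. The 5 late members had mean log2 intensities between 10.2 and 10.999, the 7 early ones between 8.41 and 10.1, and across all 57 the difference between 15 and 5 min correlated with mean intensity at r = -0.43, again as a description; the part of intensity in the timing was not tested.

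**Figure D3:**
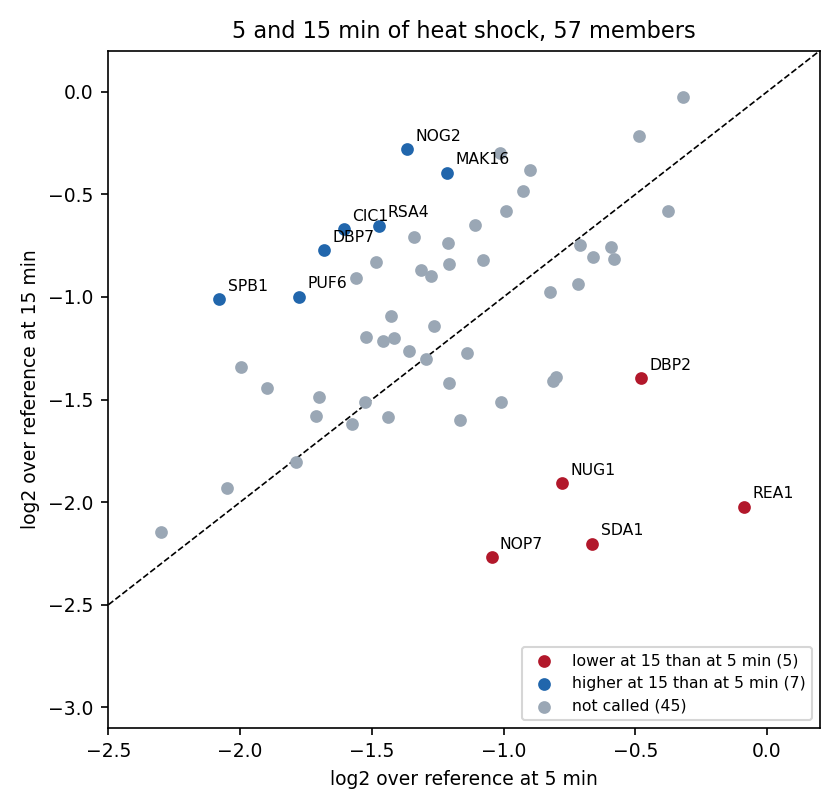
Log2 level over the common reference at 5 min (horizontal axis) and at 15 min (vertical axis) of heat shock for each of the 57 members, means of 2 arrays, with the line of equal levels dashed. The 5 named members under the line were called lower at 15 than at 5 min and the 7 named members above it higher; REA1 lies at the far right, at -0.09 and -2.02.

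By 60 min the members had come back most of the way. All 57 were higher at 60 than at 15 min on both arrays, as were 44.2% of all genes, and 30 passed limma's adjusted p and the 1.7-fold limit, against 5.63% of all genes. The median of the difference was 0.78 over the members and -0.0014 over all genes, which the loess curve centres near 0. The largest was that of SDA1, at -0.45 and -0.59 on arrays a and b at 60 min, against -2.20 on both at 15 min (1.68 ± 0.06, SE; limma adjusted p = 3.4e-12). REA1 followed with 1.61 ± 0.06, at -0.38 and -0.43 at 60 min, then NUG1 (1.49 ± 0.06), NOP7 (1.43 ± 0.08) and ARX1 (1.38 ± 0.05). Of the 41 members called lower at 15 min, 28 were among the 30. Both calls use the arrays of 15 min, so this overlap is partly built in and nothing is read from it. Across members the 2 values correlated at r = -0.90. At 60 min the values of all 57 lay between -0.84 and 0.43, and of these 49 were below 0 (37 with scaling on external control spots, where 47 lay below the median of all genes). Still called lower were NOP7 (-0.79 and -0.88), RRP12 (-0.87 and -0.79) and TIF6 (-0.86 and -0.70), the last the anti-association factor that keeps the new subunit from joining the small one. RRP12 was also the member called at 45 min, at -0.69 and -0.89, where array a alone is short of the 1.7-fold limit. A call of 1 of 57 is near the 1.83% of all genes called lower at 45 min. Scaling on external control spots raised the median of all genes by 0.28 for 60 against 15 min. It then called 47 members higher, against 792 of 5315 genes, with a members' median of 1.08. Relative to that shift the median was close to the one above.

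In the culture grown at 37 °C the members lay around the reference. Their median was 0.01, the values ran between -0.70 and 0.47, and 0 of 57 were called, against 3.35% of all genes. TIF6 had the lowest value, -0.61 and -0.79 on arrays a and b (-0.70 ± 0.08, SE; limma adjusted p = 1.3e-06), short of the 1.7-fold limit. It was called lower (1 of 57) when array a of the 37 °C culture was left out. RRP14 had the highest value, 0.56 and 0.38. After 60 min at 37 °C, 55 of 57 members were still below their level in the 37 °C culture, with a median difference of -0.27. Scaling on external control spots raised the median of all genes by 0.22 in this comparison and put the members' median at 0.001, with 28 of 57 below their level in the 37 °C culture, so that the direction depends on this scaling; 54 of 57 then lay below the median of all genes. With the scaling used elsewhere, 0 of the 57 differences passed both limits, against 1.71% of all genes, and 39 passed limma's adjusted p alone, against 21.6% of all genes that were lower by that measure. RRP12 (-0.73), REA1 (-0.66) and DBP2 (-0.64) differed most. TIF6 differed by -0.08 ± 0.11 (limma adjusted p = 0.57), so that its level after 60 min of heat and in the 37 °C culture was not told apart.

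When cells were moved to 30 °C, all 57 members were higher than in the 37 °C culture within 5 min, on both arrays, as were 43.8% of all genes. By the study's methods the shifted cells were also spun down and taken up in other medium. No transfer without a temperature change is among the samples, so the temperature and the transfer cannot be told apart, in cold shock or in heat shock. By limma 41 of 57 were called higher after 5 min (2.94% of all genes), 32 after 15 min (2.67%), 16 after 30 min (1.43%), 4 after 45 min (1.05%) and 0 after 60 min (0.847%). The median difference was 0.89, 0.79, 0.64, 0.52 and 0.39 at the 5 times in order, while that of all genes, which the loess curve centres near 0, was within 0.01 of 0. By the mean of 2 arrays the highest level was at 5 min in 41 members and at 15 min in 16. The difference between these 2 times was not tested, and no share over all genes is given. At 60 min 54 of 57 still passed limma's adjusted p alone, against 28.7% of all genes, with values up to 0.65. The count at 30 min was 10 without array b and 23 without array a of that time, and that at 45 min between 2 and 8 on leaving out single arrays (2 without array b and 7 without array a of that time, 8 without array a of the 37 °C culture). At 45 min the called members were DBP2, RRP8, NOP7 and NOP15.

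The levels after cooling were also above the reference, which had been grown without a shift. Against the reference 38 members were called higher after 5 min (4.5% of all genes), 29 after 15 min (3.1%), 19 after 30 min (1.66%), 10 after 45 min (0.79%) and 5 after 60 min (0.659%). Those 5 were DBP2, NOG2, EBP2, RRP14 and REA1, at between 0.77 and 0.83. TIF6 was the exception in level, at 0.05 and 0.16 at 5 min and -0.11 and -0.26 at 60 min on arrays a and b, although it was called higher than in the 37 °C culture (0.80 ± 0.11 at 5 min, SE; limma adjusted p = 1.4e-05). The 2 arrays of TIF6 differed at 15 min of cold shock, at -0.03 and 0.48, more than those of the other members named.

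DBP2 rose most. It was at 1.71 and 1.86 on arrays a and b after 15 min of cold shock, against 0.22 and 0.15 in the 37 °C culture, a difference of 1.60 ± 0.09 (SE; limma adjusted p = 7.8e-10), and at 1.91 and 2.03 after 5 min. NHP2, which encodes a core protein of the snoRNPs that guide pseudouridylation, was at 1.18 and 1.36 at 15 min, against -0.08 and 0.01 in the 37 °C culture (1.31 ± 0.05, limma adjusted p = 1.7e-11). RPF2 was at 1.42 and 1.19, against 0.14 and 0.02 (1.23 ± 0.09, limma adjusted p = 9.7e-09). In all 3 genes both arrays after cooling lay above both arrays of the 37 °C culture by more than 1. NUG1 differed by 1.16 ± 0.06 and the helicase gene DBP3 by 1.11 ± 0.05. Between 15 and 60 min of cold shock all 57 members were lower at the later time on both arrays, as were 42.2% of all genes, with a median difference of -0.42, and DBP2, NHP2, RPF2 and NIP7 were called lower at 60 min, against 0.715% of all genes.

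**Figure D4:**
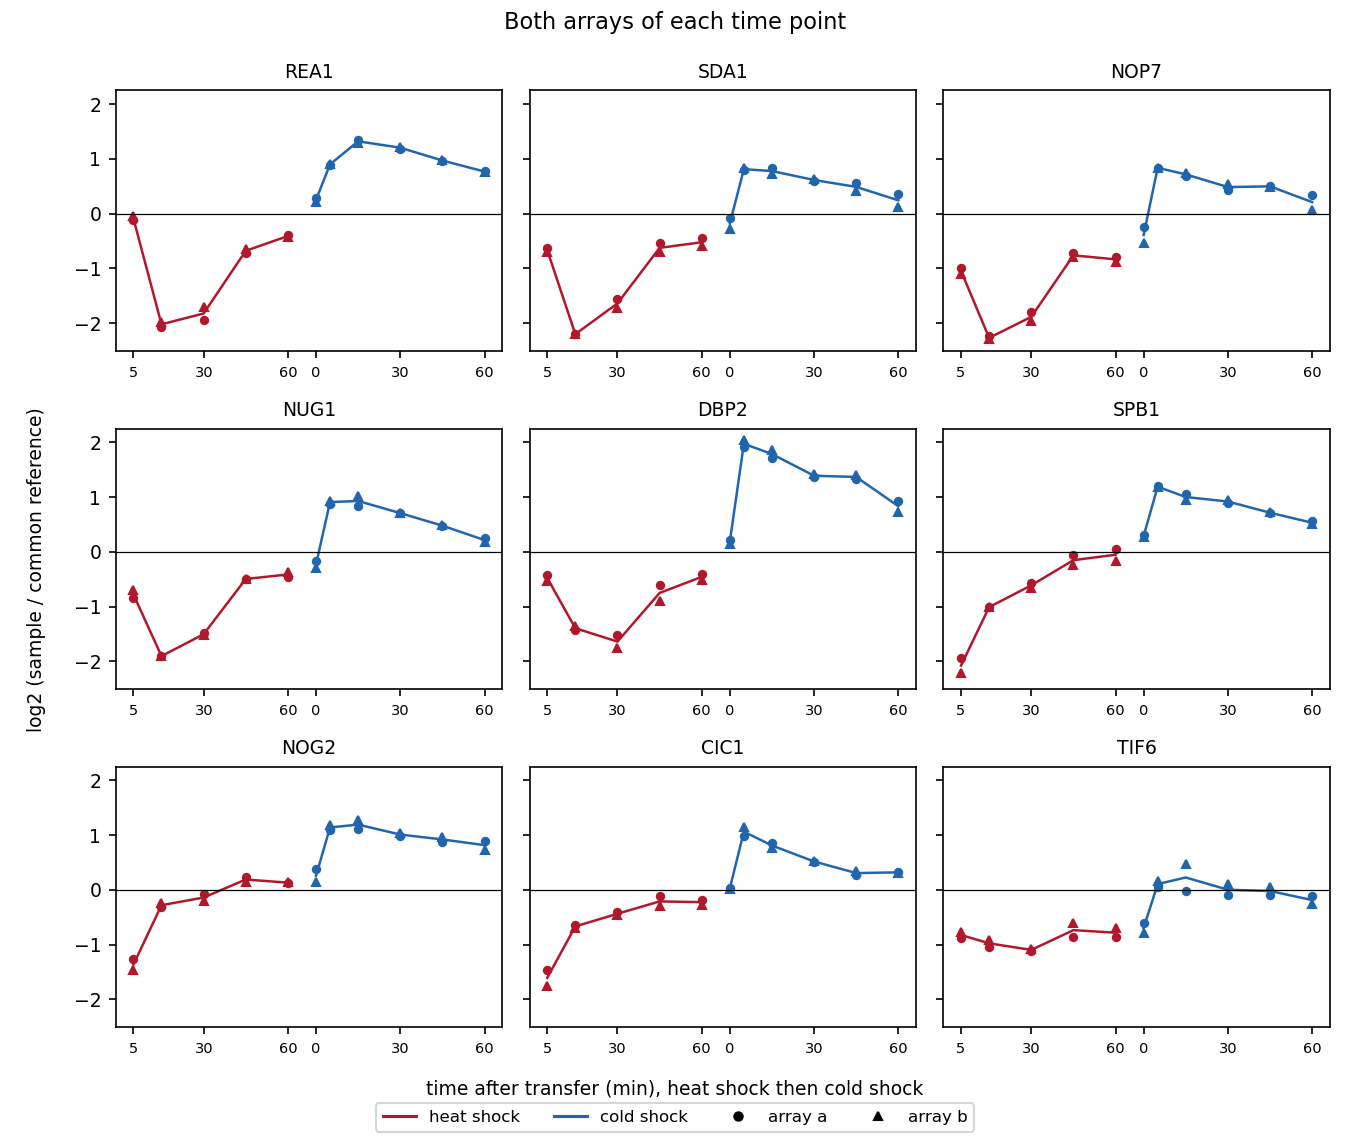
Log2 level over the common reference (vertical axis) against minutes after transfer (horizontal axis) for 9 members, heat shock in red and then cold shock in blue, with circles for array a, triangles for array b and lines through their mean. REA1, SDA1, NOP7 and NUG1 have a trough at 15 min, SPB1, NOG2 and CIC1 are lowest at 5 min, and TIF6 alone of these stays below -0.60 in the 37 °C culture.

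Members with a large fall in heat tended to rise more on cooling, but loosely. Across the 57 members the value at 15 min of heat shock and the difference at 15 min of cold shock correlated at r = -0.43, and those at 5 min at r = -0.20. The points share probes, reference and dye, so these are descriptions. Both values at 15 min also went with mean intensity, at r = -0.36 in heat shock and r = 0.49 in cold shock. Of the 41 members called lower at 15 min of heat shock, 25 were called higher at 15 min of cold shock. This is close to the share among all 57 members, of which 32 were called higher, so the overlap adds little. YTM1 (-1.60 and 0.67), MAK21 (-1.58 and 0.65) and NMD3 (-1.51 and 0.67) were called lower in heat and not called on cooling, while NOG2 (-0.28 and 0.94), NOP12 (-0.30 and 0.80) and EBP2 (-0.65 and 0.99), a nucleolar partner of Brx1, were called higher on cooling and not lower at 15 min of heat. On cooling, 14 members were called at none of the 5 times, SSF2, RLP7, YTM1, RRP14 and NOP16 among them. The share of all genes called at none is not given here.

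Other lists of ribosome synthesis genes were read against the same shares of all genes called lower, 6.02% at 5 min and 9.33% at 15 min of heat shock. Of 26 other 60S assembly genes 14 were called lower at 5 min and 15 at 15 min of heat shock, with medians of -0.84 and -1.06. RRP5, needed for cuts on both sides of the pre-rRNA, was at -2.53 and -2.35 on arrays a and b at 15 min, and URB1, an early pre-60S protein, at -2.12 and -2.07. Of 47 genes of the small-subunit processome 43 were called lower at 5 min and 29 at 15 min, with medians of -1.25 and -0.84. UTP20 was at -2.57 and -2.46 and KRE33, an rRNA acetyltransferase, at -2.19 and -2.18 at 15 min. The 7 genes of snoRNP core proteins had medians of -0.99 at 5 min, with 5 called lower, and -1.59 at 15 min, with 7 called. Among these were the methyltransferase gene NOP1 (-2.20 and -2.03) and NOP56 (-1.92 and -1.93).

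Genes for cutting and trimming at ITS2, which include general exosome subunits and nucleases, had medians closer to 0. Of 19, 7 were called lower at 5 min and 4 at 15 min, with medians of -0.51 and -0.38. The exosome helicase gene MTR4 (-2.13 and -2.12) and the nuclease gene RAT1 (-1.17 and -1.27) were lowest at 15 min. Of 120 genes of cytosolic ribosomal proteins 3 were called lower at 5 min and 44 at 15 min, with medians of -0.21 and -0.56. The 3 at 5 min are a smaller share than the 6.02% of all genes. At 15 min of cold shock 0 of the 120 were called higher, against 2.67% of all genes and 32 of the 57 assembly factors. Paralogues of ribosomal proteins share sequence, so their separate values are uncertain.

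**Figure D5:**
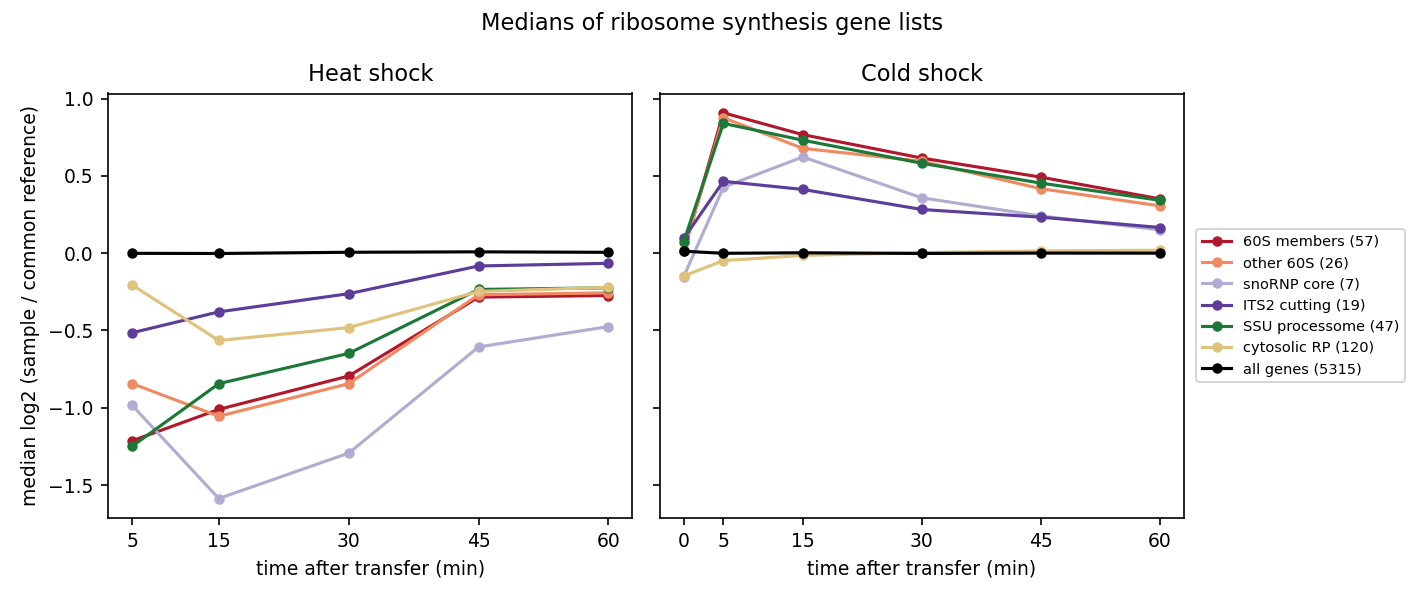
Median log2 level over the common reference (vertical axis) against minutes after transfer (horizontal axis) in heat shock (left) and cold shock (right) for the 57 members, 5 other gene lists and all genes, with the number of genes in brackets. The members' median is lowest at 5 min (-1.21) and that of the snoRNP core genes at 15 min (-1.59), while the median of all genes is held near 0 by the loess curve.

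Of 9 regulators of the regulon, 2 were called lower at 5 min and 1 at 15 min of heat shock, against 6.02% and 9.33% of all genes, and nothing is read from counts this small. TOD6, a repressor, was at -1.68 and -1.57 on arrays a and b at 5 min and at -0.88 and -0.92 at 15 min of heat shock, and it was called lower at both times (limma) and higher at 15 min of cold shock (0.91). Its paralogue DOT6 was at 0.34 and 0.45 at 5 min and -0.06 and -0.22 at 15 min and was called at neither. IFH1, a co-activator of ribosomal protein genes, was called lower at 5 min (-0.78 and -0.77). SFP1 lay at -0.07 and -0.12 at 15 min, STB3 at 0.42 and 0.40, SCH9 at -0.24 and -0.26, FHL1 at -0.33 and -0.34, CRF1 at -0.21 and -0.21, and HMO1 at 0.68 and 0.70. None of these 6 was called at 5 or 15 min.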

How the data were processed

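The authors printed 2-colour oligonucleotide arrays, scanned them and deposited mean spot intensities and backgrounds without subtraction. They also deposited log2 ratios after print-tip loess and a gene-specific dye correction; these ran opposite to the scanner intensities on 3 of 22 arrays, were turned there, and served as an alternative. A deposited table of their own comparisons (fold changes, p-values; limma 2.12.0 is named in the submitters' processing notes) was not used.

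Ratios (sample over reference, log2) were here recomputed from the intensities with a print-tip loess curve (span 0.4, 48 blocks) that skipped control spots and spots above 32768. Each probe is the mean of its 2 spots. Of 6388 gene probes 5326 carry a symbol; 54 symbols were updated through a gene table of assembly R64, which gave names and neighbours only. For 11 genes with several probes the brightest was taken. With limma 3.58.1 in R 4.3.3, 1 coefficient per condition and a dye term were fitted to all 22 arrays, with Benjamini-Hochberg adjustment over the 5326 probes. Calls needed an adjusted p below 0.05 together with a change of more than 1.7-fold. The fit was tested on simulated data.

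The dye term is also the array letter, and thus a replicate block. By the submitters' design text the 2 arrays of a condition are separate cultures with dyes exchanged; the study's methods give 2 cultures, each in dye-swap. If the arrays share a culture, the p-values measure technical spread alone. That text also puts the first sample in Cy5, whereas the labels put array a in Cy3; the labels were followed. The number of arrays limits the precision.

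Members and lists were chosen with earlier results of these data known. Named were the 8 called members with the largest fall at 15 min of heat shock, the 5 with the largest rise at 60 against 15 min and the 5 at 15 min of cold shock, the 4 closest to 0 at 15 min of heat shock, 22 members spread over the roles, the 2 called genes with the largest fall of each other list, and all 9 regulators. Others named were chosen after their values were seen. Alternatives were other normalisations, background correction, baseline, filters, a 2-fold limit, no dye term, and each array left out; those for 15 against 5 min were chosen after seeing the data.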

Additional observations from a re-analysis of the deposited data

Results flagged for a closer look

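The change at 15 against 5 min of heat shock differed between the 2 times, by a direct limma test at the same thresholds, in 12 members. It was negative in 5, at -1.93 in REA1, -1.54 in SDA1, -1.22 in NOP7, -1.13 in NUG1 and -0.92 in DBP2. It was positive in 7, at 0.78 in PUF6, 0.82 in MAK16, 0.82 in RSA4, 0.91 in DBP7, 0.94 in CIC1, 1.07 in SPB1 and 1.09 in NOG2. The 5 negative differences were called under each normalisation and on leaving out each array of the 2 times, but with a 2-fold limit that of DBP2 was not. Of the positive ones, those of PUF6, MAK16, RSA4, CIC1 and, with the 2-fold limit, DBP7 were not called under at least 1 alternative. Between 15 and 60 min of heat shock the change differed in 30 members, each higher at 60 min.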

How the results depend on the processing

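No called value changed sign. The members' median at 60 min against the 37 °C culture, with 0 called, was -0.27 and became 0.001 with the control-spot curve, which raised that of all genes by 0.22. Counts moved by over 1.5 times as follows. With a 2-fold limit, members lower in heat were 19 at 30 min, 0 at 45 min and 0 at 60 min, 16 were higher at 60 than at 15 min and 2 at 15 than at 5 min, and 20, 12, 1 and 1 were higher at 5, 15, 30 and 45 min of cold shock. With no within-array curve, 3 were lower at 45 min and 5 at 60 min of heat shock, against 268 and 258 of 5315 genes. The 3 at 45 min are near the share of all genes. At 60 min against the 37 °C culture 3 changed, while 43 of all genes were lower and 54 higher. In cold shock 8, 2 and 1 were higher at 30, 45 and 60 min, against 82, 70 and 106 of all genes. A curve through control spots, extrapolated above a log2 intensity of 10.8 (3 members), raised the median of all genes by 0.19 and 0.20 at 45 and 60 min of heat shock. It gave 2 members lower at 45 min and 1 at 60 min, against 205 and 62 of 5315 genes, shares near those of all genes. It gave 47 higher at 60 against 15 min and 4 at 15 against 5 min, against 792 and 64 of all genes. At 45 and 60 min of cold shock 14 and 9 were higher, against 107 and 220 of all genes. A single loess curve gave 8 higher at 45 min of cold shock, against 59 of all genes. The deposited log2 ratios gave 2 lower at 45 min of heat shock and 2 higher at 45 min of cold shock, against 93 and 51 of all genes. The 37 °C culture as baseline gave 2 lower at 45 min and 0 at 60 min of heat shock, for which shares of all genes are not given. The reference as baseline gave 10 and 5 higher at 45 and 60 min of cold shock, against 0.79% and 0.659% of all genes.

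Leaving out single arrays gave 45 to 46, 41 to 43, 29 to 31, 2 and 2 to 3 members lower at the 5 heat shock times, 0 to 1 changed in the 37 °C culture (1 without its array a), 28 to 33 higher at 60 than at 15 min, 0 to 1 changed at 60 min against the 37 °C culture (1 without array b of 60 min), and 37 to 44, 27 to 33, 10 to 23, 2 to 8 and 0 higher at the 5 cold shock times. For 15 against 5 min they gave 5 lower and 5 to 9 higher. Without the dye term, and so with no replicate block, the counts were 46, 41, 30, 1 and 3 in heat shock, 30 at 60 against 15 min, and 41, 32, 16, 4 and 0 in cold shock, which changed no count. For single members 1053 values kept their call, 27 lost it and 13 gained it. A fold limit near the members' median makes counts sensitive to small shifts, and only 2 arrays per condition were measured. Shares of all genes are not given for the fits with an array left out.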
